A study of Mus musculus with 11 samples.

Results

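Vitamin A travels in the body as retinol and acts in cells as retinoic acid, and a small group of carrier genes serves both steps. Their expression in the mouse nucleus accumbens was compared between mice without a working Rarb, which encodes a nuclear receptor for retinoic acid, and wild-type (WT) littermates. The group consists of Stra6, Rbp4, Crabp1, Crabp2 and Ttr, taken as every probe set whose annotation names 1 of these symbols and no other gene. This gave 5 probe sets for 5 genes, out of 19938 genes with such a probe set. Retinol circulates bound to the protein of Rbp4, which itself rides on transthyretin, the protein of Ttr, also a carrier of thyroid hormone. The membrane protein of Stra6 takes retinol over from that carrier at the cell surface. Inside the cell, the proteins of Crabp1 and Crabp2 bind retinoic acid: Crabp2 is known to hand it to nuclear receptors, and Crabp1 to hold it in the cytosol. Retinoic acid then binds receptors such as that of Rarb, which is strongly expressed in the striatum, whose ventral part is the nucleus accumbens.

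The study profiled 5 male Rarb-null mice and 6 male WT littermates, aged 4 to 5 months, with Affymetrix Mouse Gene 1.0 ST arrays, 1 array per mouse. All came from heterozygous crosses on a mixed background of C57BL/6J and 129SvEms/j, and none had undergone behavioural tests. The tissue was punched from frozen sections and enriched in the shell of the nucleus accumbens. The labels name no promoter or cell type that limits the mutation, and whether the null mice trace to more than 1 founder was not given in the sources used here. In such bulk tissue, fewer cells of a type and less RNA per cell cannot be told apart. The group sizes follow the sample titles and the series design, since 1 protocol text gives them the other way round.

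Levels are given on the log2 scale of the deposited RMA (robust multi-array analysis) values, and the level of 1 gene is not set against that of another, because probe sets differ in brightness. Rarb, read as a check of the titles, had 9.88, 9.86, 10.01, 9.99 and 9.72 in the Rarb-null arrays, against a lowest of 11.70, a median of 11.755 and a highest of 11.81 in the WT arrays, a difference of -1.86 (standard error, SE, 0.047). Every array thus matched its title. The residual Rarb signal is not a measure of intact transcript, since the sources used here do not say which part of the gene was removed or read. Markers of striatal projection neurons were bright in both genotypes, as shown by Penk (13.60 in Rarb-null and 13.66 in WT arrays on average) and Meis2 (12.72 in Rarb-null and 12.78 in WT arrays). Their mean level over 21 measured genes of 23 ran from 11.40 to 11.53 in Rarb-null arrays and from 11.65 to 11.74 in WT arrays. Of these 21 genes 13 fell and 0 rose, where 12.0% of all tested genes fell and 7.56% rose. In a fit without the filter on dim genes 10 of the falls passed. The median of an array lay between 7.08 and 7.11 in Rarb-null and between 7.02 and 7.06 in WT arrays. The 7975 genes below the 40th percentile of mean level had a median difference of 0.06, and 80.1% of them were above 0. The 11963 genes above that percentile (log2 6.99) had a median of -0.02 and were the ones tested. Differences are Rarb-null minus WT with the SE of a limma fit, and a gene is said to rise or fall where the Benjamini-Hochberg adjusted p over all genes tested is below 0.05.

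Within the carriers, the cell-surface retinol transporter gene fell while the genes of a retinol carrier and of a retinoic acid binder rose. Stra6 was 1.90-fold lower, Rbp4 rose 1.41-fold and Crabp1 rose by 0.59 on the log2 scale, and no Rarb-null array overlapped a WT array for any of these genes. Ttr and Crabp2 were dim on every array: Crabp2 did not pass, and Ttr (0.25) passed in a fit without a filter on dim genes. Stra6, Rbp4 and Crabp1 lay at percentiles 75.8, 83.5 and 87.8 of mean level over all genes, and Crabp2 and Ttr at percentiles 19 and 13.2, below the filter. For these last genes the values come from a fit without a filter. In that fit 4 of the 5 carriers passed the threshold, where 12.6% of all genes did (6.41% higher and 6.16% lower). The call of Ttr among them was lost under most alternatives, as given with that gene. The median difference of the carriers was 0.25, which is the value of the dim gene Ttr, against 0.02 over all genes. The groups did not overlap for 3 of the 5 carriers, against 7.87% of all genes and 11.2% of tested genes. With the filter, 19.6% of 11963 genes passed, 7.56% higher and 12.0% lower in Rarb-null arrays. These shares are the reference for the counts of rises and falls given for each list. A difference of at least 0.5 in size was found for Stra6 and Crabp1, as for 1.60% of tested genes. The carriers thus moved in both directions. They were chosen with earlier results of these data known, so setting them beside the shares of all genes is no test of the group.

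**Figure D1:**
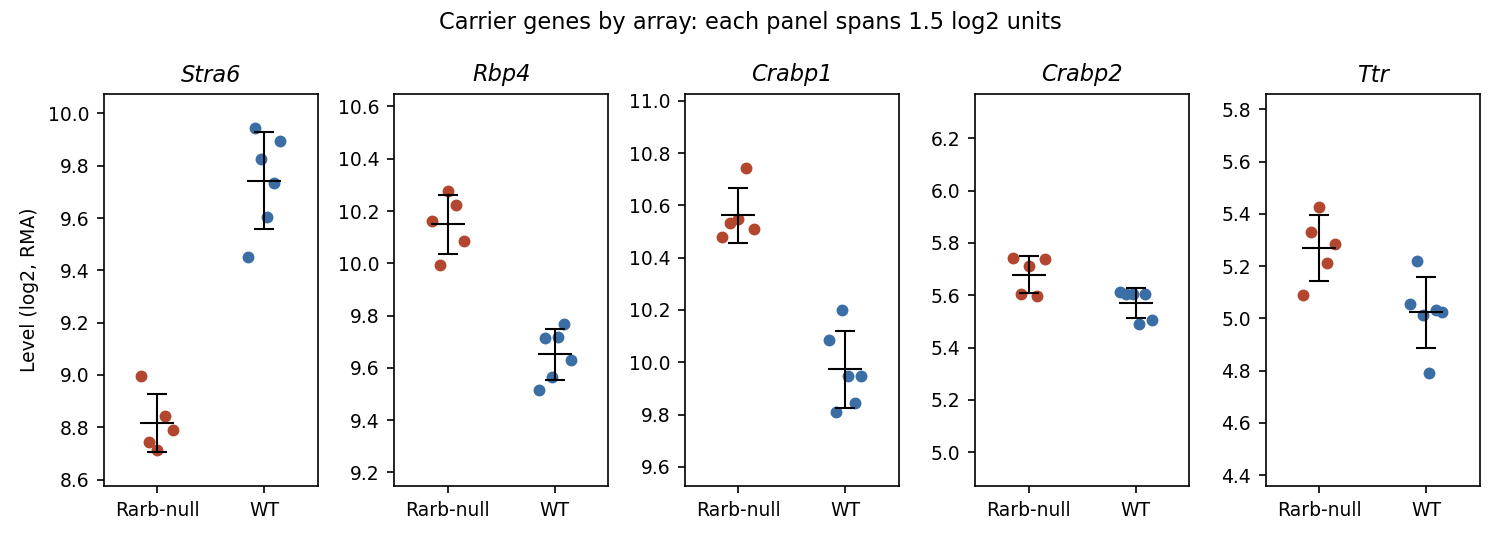
Log2 RMA level of each carrier gene by array, with 5 Rarb-null arrays on the left (red) and 6 WT arrays on the right (blue) of each panel. Bars give the mean and SD, and each panel spans 1.5 log2 units around its own centre. The genotypes separate for Stra6 (lower in Rarb-null), Rbp4 and Crabp1 (higher in Rarb-null) and overlap for Crabp2 and Ttr.

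The regions just upstream of these genes are shown because the deleted gene encodes a DNA-binding receptor that recognises short hexamers arranged as repeats. RefSeq promoter windows (GRCm38.p6) run from 250 bases before to 50 bases after an annotated start. No window of Crabp2 or Ttr was read, so the counts below do not cover these genes. The windows read belong to 3 carriers, with 4 windows for Stra6, 2 for Rbp4 and 1 for Crabp1. They were searched on both strands for the hexamer AGGTCA and its variants, which begin with GG in GGGTCA, hold AGT in AGTTCA and hold both changes in GGTTCA. Letters are in lower case and these hexamers in capitals. The windows are the most upstream Stra6 start, at chr9:58128838-58129137 on the plus strand, the Stra6 and Rbp4 starts that hold a hexamer, at chr9:58133825-58134124 on the plus strand and chr19:38125272-38125571 on the minus strand, and the Crabp1 start at chr9:54764498-54764797 on the plus strand.
Stra6, most upstream start: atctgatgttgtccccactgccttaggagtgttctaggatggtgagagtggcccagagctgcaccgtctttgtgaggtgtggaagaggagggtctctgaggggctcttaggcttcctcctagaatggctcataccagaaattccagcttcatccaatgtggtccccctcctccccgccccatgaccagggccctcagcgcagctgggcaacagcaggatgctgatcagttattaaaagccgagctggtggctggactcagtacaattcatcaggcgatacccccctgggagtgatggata
Stra6, start with a hexamer: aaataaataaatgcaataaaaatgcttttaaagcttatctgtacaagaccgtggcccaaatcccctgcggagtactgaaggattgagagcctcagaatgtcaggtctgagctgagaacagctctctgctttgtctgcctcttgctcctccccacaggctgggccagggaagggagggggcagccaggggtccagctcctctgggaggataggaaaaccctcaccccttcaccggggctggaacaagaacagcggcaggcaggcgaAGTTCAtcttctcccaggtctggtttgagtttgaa
Rbp4, start with a hexamer: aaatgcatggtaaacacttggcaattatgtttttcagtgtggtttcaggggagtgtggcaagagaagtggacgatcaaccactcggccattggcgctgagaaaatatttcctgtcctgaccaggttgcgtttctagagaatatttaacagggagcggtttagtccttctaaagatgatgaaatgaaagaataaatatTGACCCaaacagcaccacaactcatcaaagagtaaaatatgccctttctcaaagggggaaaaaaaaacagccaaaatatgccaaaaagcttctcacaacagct
Crabp1: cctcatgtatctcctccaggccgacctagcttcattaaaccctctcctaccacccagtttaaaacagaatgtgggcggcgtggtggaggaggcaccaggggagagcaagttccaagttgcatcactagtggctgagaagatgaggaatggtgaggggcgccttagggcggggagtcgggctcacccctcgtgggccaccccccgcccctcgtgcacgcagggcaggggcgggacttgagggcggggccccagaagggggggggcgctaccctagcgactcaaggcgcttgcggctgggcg
The Stra6 match, AGTTCA, begins at base 15, with the start counted as base 0, and the Rbp4 match, TGACCC, which is GGGTCA read on the opposite strand, begins at base -53. The other 5 windows held no hexamer. Of all 32851 promoter windows, 43.7% held at least 1 of the hexamers, and 16.3% held AGGTCA itself. Neighbouring hexamers in the same direction with a spacer of 1, 2 or 5 bases, the arrangement known for retinoic acid receptors, occurred in 0 of the 7 windows and in 0.222%, 0.268% and 0.0974% of all windows. These windows cover little of each gene's surroundings, and nothing about binding can be read from them.

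Stra6 had the largest difference of the 5 carriers. Its level was 8.99, 8.74, 8.71, 8.84 and 8.79 in the Rarb-null arrays, against a lowest of 9.45, a median of 9.78 and a highest of 9.94 in the WT arrays. All Rarb-null arrays lay below all WT arrays, with the nearest pair 8.99 (Rarb-null replicate 1) and 9.45 (WT replicate 1). The means were 8.82 ± 0.11 in Rarb-null (SD, n = 5) and 9.74 ± 0.19 in WT arrays (SD, n = 6). The difference was -0.93 (SE 0.082, 95% interval -1.10 to -0.75), and limma gave a Benjamini-Hochberg adjusted p of 6.09e-06. It ranked number 20 by size among the falls of 11963 tested genes. An exact two-sided permutation test over 462 splits of the arrays gave p = 0.00216, the smallest value it can give. Leaving out any array kept it between -0.98 and -0.89. With the projection neuron marker level as a covariate, which does not overlap between the genotypes, it was -0.86 (SE 0.237) and no longer passed (adjusted p = 0.0975).

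Stra6 is known from barrier tissues such as retinal pigment epithelium, choroid plexus and meninges, so markers of such cells were read beside it. Of 16 listed endothelial and mural markers 15 were measured and tested, and 0 passed the threshold (exact permutation test of their mean level, adjusted p = 0.36). Their mean level ran from 8.35 to 8.51 in Rarb-null and from 8.41 to 8.52 in WT arrays, with Cldn5, of the tight junctions of vessels, at -0.03 and Vtn, a pericyte gene, at -0.08. The sign of the difference between their means turned with arrays centred on the median of tested genes (-0.03 as deposited, 0.01 centred). Meningeal fibroblast markers, with 14 of 14 measured and 9 tested, held 2 rises, of the collagen genes Col1a1 (0.15) and Col1a2 (0.14), and 1 fall, of Islr (-0.55). Without the filter the fall passed and neither rise did (adjusted p = 0.050 and 0.0619). Slc22a6, a gene of the list below the filter, gave 0.22 and passed without it (adjusted p = 0.0482 by limma). The mean level of the meningeal list overlapped between genotypes, from 7.07 to 7.34 in Rarb-null and from 7.01 to 7.18 in WT arrays (exact permutation adjusted p = 0.429). Bgn, read by the brightest probe set of this list, gave -0.09 and did not pass. Within genotypes, Stra6 deviations over the 11 arrays went with the mean of the meningeal list (Pearson r = 0.78, permutation p = 0.0047, adjusted over 45 relations 0.213; Spearman rho = 0.92, permutation p = 0.0016, adjusted 0.0724). Without the 2 arrays farthest from the median r was 0.68, and with Islr left out of the list it was 0.78 over all arrays. The relation did not pass after adjustment, nor did those of Stra6 with other such lists. For choroid plexus markers r was 0.20 and rho 0.05 (adjusted permutation p = 0.763 and 0.93). For ependymal markers, of cells lining the ventricle, r was 0.61 and rho 0.73 (0.582 and 0.48). For endothelial and mural markers r was 0.56 and rho 0.60 (0.582 and 0.48). With the choroid plexus level as a covariate Stra6 gave -0.98 (limma adjusted p = 0.00021). The part of these cells in the fall of Stra6 was not tested beyond this fit.

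The genes next to Stra6 fell as well. On the chromosome, in the RefSeq order of protein-coding genes, Stra6 is followed by Islr and Islr2, which encode leucine-rich repeat proteins with an immunoglobulin domain. Islr2 is a neuronal membrane protein known for roles in axon growth. Islr2 had 9.64, 9.65, 9.72, 9.64 and 9.85 in the Rarb-null arrays, against a lowest of 10.11 and a highest of 10.36 in the WT arrays, and fell by 0.56 (SE 0.050; adjusted p = 6.49e-06 by limma). Islr had 8.03, 7.74, 7.73, 7.80 and 7.89 in the Rarb-null arrays, against a lowest of 8.23 and a highest of 8.59 in the WT arrays, and fell by 0.55 (SE 0.076, adjusted p = 0.000248). For both genes the genotypes did not overlap. Sema7a, a semaphorin gene 3 positions away on the other side, fell by 0.31 (SE 0.079, adjusted p = 0.0153), with 9.05 to 9.28 in Rarb-null and 9.26 to 9.68 in WT arrays, which overlapped. Between them, Ccdc33 (0.02), which overlaps Stra6 in the annotation, and Cyp11a1 (0.05) lay below the filter and did not pass without it, with adjusted p = 0.751 and 0.643. Pml, the next gene after Islr2, gave -0.11 and did not pass (adjusted p = 0.168).

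Taking 3 genes on each side, 3 of the 4 tested neighbours of Stra6 fell and 0 rose, where 12.0% of all tested genes fell. Taking 8 on each side, a window set after the first values were seen, the count stayed at 3 falls, among 12 tested. Crabp1 lies on the same chromosome as Stra6, with 53 protein-coding genes between them. Of its 5 tested neighbours within 3 genes 1 fell, Acsbg1, a fatty acid activation gene (-0.19, SE 0.042), and its nearest neighbours Wdr61 (-0.04) and Ireb2 (-0.09) did not pass. Around Rbp4 only Lgi1 was tested within 3 genes (-0.10, adjusted p = 0.0999), and the retinoic acid-degrading genes Cyp26a1 and Cyp26c1, a few genes away, were below the filter. Around Crabp2 1 of 5 tested neighbours fell, the matrix gene Bcan (-0.14), and around Ttr 1 of 2 did, B4galt6 (-0.22). Within 8 genes, 3 of 6 tested neighbours of Rbp4 fell, namely Exoc6 (-0.28), Noc3l (-0.19) and Tbc1d12 (-0.15, which did not pass without the filter, adjusted p = 0.0645). In that window 2 of 5 tested neighbours of Ttr fell, B4galt6 and Garem1 (-0.24), 1 of 9 of Crabp1 and 1 of 10 of Crabp2. None of the carriers lies on chromosome 14, which holds Rarb.

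**Figure D2:**
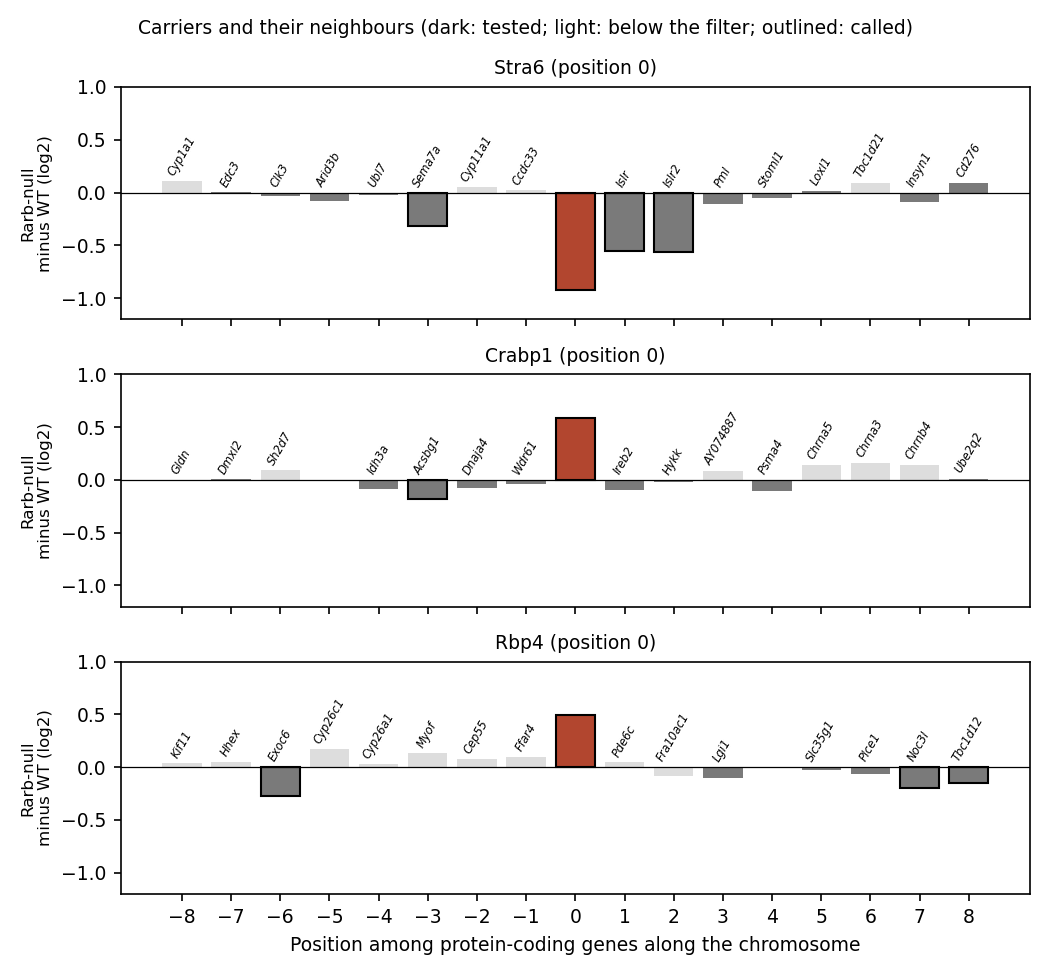
Difference between Rarb-null and WT arrays (log2, vertical axis) for Stra6, Crabp1 and Rbp4 (red, position 0) and for up to 8 protein-coding genes on each side in chromosome order (horizontal axis, no distances). Dark bars were tested, light bars lay below the filter, and outlined bars passed the threshold. Beside Stra6, the bars of Islr and Islr2 (-0.55 and -0.56) and of Sema7a (-0.31) point the same way, while around Crabp1 and Rbp4 the outlined bars are all below 0 and reach -0.28 (Exoc6).

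Crabp1 rose. Its level was 10.48, 10.53, 10.55, 10.74 and 10.51 in the Rarb-null arrays, against a lowest of 9.81, a median of 9.95 and a highest of 10.20 in the WT arrays. The lowest Rarb-null array stood above the highest WT array, and Rarb-null replicate 4 stood above the other Rarb-null arrays. The means were 10.56 ± 0.10 in Rarb-null (SD, n = 5) and 9.97 ± 0.15 in WT arrays (SD, n = 6), a difference of 0.59 (SE 0.069, 95% interval 0.44 to 0.74). The adjusted p by limma was 6.91e-05, the exact permutation p was 0.00216, and the rise ranked number 59 among tested genes. Without Rarb-null replicate 4 it was 0.54 (adjusted p = 0.000219).

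Crabp1 is known in the brain from scattered neurons, including interneurons. Of 14 interneuron markers 11 were tested, of which 4 rose and 3 fell. The rises were Npy (0.40), Th (0.18), Calb2 (0.54) and Cck (0.79), and the cholinergic genes Slc5a7 (-0.42), Slc18a3 (-0.25) and Chat (-0.18) were the falls. Without the filter the 3 falls and Npy passed, while Th, Calb2 and Cck did not (adjusted p 0.0508 to 0.0603). Chodl, a gene of the list below the filter, gave 0.21 and passed without it (adjusted p = 0.0256 by limma). Sst, the brightest of the list, gave 0.18 and did not pass. The mean level of the list overlapped between genotypes, from 8.71 to 8.95 in Rarb-null and from 8.54 to 8.81 in WT arrays (exact permutation adjusted p = 0.212). With this level as a covariate Crabp1 gave 0.64 (adjusted p = 8.05e-05). Within genotypes the relation of Crabp1 to this level did not pass. Its r was -0.42 (permutation p = 0.236, adjusted 0.582) and its rho -0.38 (permutation p = 0.285, adjusted 0.57). With the level of cortical neuron markers as a covariate, the Crabp1 difference was 0.73 (adjusted p = 2.62e-05). Within genotypes Crabp1 deviations ran against the cortical level (r = -0.70, permutation p = 0.0276, adjusted 0.582; rho = -0.69, permutation p = 0.0382, adjusted 0.48; r = -0.67 without the 2 farthest arrays), a relation that did not pass after adjustment.

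Rbp4 rose as well. Its level was 10.16, 9.99, 10.28, 10.22 and 10.09 in the Rarb-null arrays, against a lowest of 9.52, a median of 9.67 and a highest of 9.77 in the WT arrays. All Rarb-null arrays lay above all WT arrays. The means were 10.15 ± 0.11 in Rarb-null (SD, n = 5) and 9.65 ± 0.10 in WT arrays (SD, n = 6). The difference was 0.50 (SE 0.057, 95% interval 0.37 to 0.62), with adjusted p = 5.69e-05 by limma and an exact permutation p of 0.00216. It ranked number 85 among the rises, and leaving out any array kept it between 0.46 and 0.54.

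In the brain Rbp4 is best known as a marker of pyramidal neurons of cortical layer 5, so cortical markers were read beside it. Of 12 listed genes 10 were measured and 8 tested, of which 3 rose and 0 fell: Cux2 (0.18), Fezf2 (0.41) and Emx1 (0.22). Below the filter, Neurod1 (0.44) passed in the fit without it (adjusted p = 0.0369 by limma), and Neurod6 (0.63) did not (adjusted p = 0.108). Slc17a7, the vesicular glutamate transporter gene and the brightest of the list, gave 0.90 (SE 0.320, adjusted p = 0.0639), and Lhx2, next in brightness, gave -0.06. The largest difference of the list was that of Tbr1, 0.95 (SE 0.346), which did not pass (adjusted p = 0.0698). The mean level of the list ran from 8.09 to 8.67 in Rarb-null and from 7.56 to 8.24 in WT arrays (exact permutation p = 0.0411, adjusted 0.0617; adjusted p = 0.0487 with arrays centred). With this level as a covariate the Rbp4 difference was 0.46 (SE 0.075, adjusted p = 0.00172). Without the 3 arrays whose cortical level an earlier pass over these data found extreme, it was 0.51 (adjusted p = 0.00149). The smallest value among the alternatives came with oligodendrocyte markers as the covariate (0.41, adjusted p = 0.0058). Within genotypes Rbp4 and the cortical level were only weakly related (r = 0.23, permutation p = 0.506, adjusted 0.76; rho = 0.22, permutation p = 0.531, adjusted 0.79; r = 0.39 without the 2 farthest arrays).

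Crabp2 did not pass. It read 5.74, 5.61, 5.71, 5.60 and 5.74 in the Rarb-null arrays, against a lowest of 5.49, a median of 5.61 and a highest of 5.61 in the WT arrays. Rarb-null replicates 2 and 4 lay within the WT range. A single value was repeated exactly on 4 arrays, 1 Rarb-null and 3 WT, as happens in 9.51% of probe sets. The difference was 0.11 (SE 0.041, 95% interval 0.02 to 0.20), with adjusted p = 0.0937 by limma without a filter and an exact permutation p of 0.0325. The 1993 genes within 5 percentiles of its level had a median difference of 0.08, and 90% of them lay between -0.06 and 0.20. With the quantile normalisation repeated, the Crabp2 difference was 0.04 (adjusted p = 0.628).

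Ttr, a gene of the choroid plexus, was dim on every array. It read 5.09, 5.33, 5.43, 5.21 and 5.29 in the Rarb-null arrays, against a lowest of 4.79, a median of 5.03 and a highest of 5.22 in the WT arrays. Rarb-null replicates 1 and 4 lay below WT replicate 2, so the groups overlapped. The difference was 0.25 (SE 0.071, 95% interval 0.09 to 0.40), with adjusted p = 0.038 by limma without a filter and an exact permutation p of 0.0173. The 1994 genes within 5 percentiles of its level had a median difference of 0.06, and 90% of them lay between -0.05 and 0.19. The call was lost when any of 9 arrays was left out, all but WT replicate 2 and Rarb-null replicate 1 (0.20 to 0.26, adjusted p 0.0529 to 0.0988), and with quantile normalisation repeated (0.18, adjusted p = 0.0836).

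Transcripts of the choroid plexus epithelium were at the dim end in these punches. Of 20 listed markers 18 were measured, and 14 of those, namely Folr1, Kcne2, Otx2, Sostdc1, Kcnj13, Tmem72, F5, Aqp1, Slc4a5, Cldn2, Calml4, Col8a1, Steap1 and Igfbp2, lay below the filter. Of the 4 tested genes Clic6, an intracellular channel protein gene, rose by 0.38 (SE 0.066) and Kl, the gene of the hormone co-receptor klotho, fell by 0.41 (SE 0.045), while Msx1 (0.18) and Ace (0.12) did not pass. The mean level of the list differed by 0.06, the same as the median of all genes below the filter. It ran from 6.29 to 6.37 in Rarb-null and from 6.22 to 6.32 in WT arrays (exact permutation p = 0.0303, adjusted 0.0545; adjusted p = 0.0487 with arrays centred). Within genotypes Ttr was weakly related to it (r = 0.26, permutation p = 0.48, adjusted 0.76; rho = 0.11, permutation p = 0.772, adjusted 0.886; r = 0.28 without the 2 farthest arrays). With the choroid plexus level as a covariate Ttr gave 0.19 (adjusted p = 0.437). Ependymal markers, of cells lining the ventricle, were mostly dim too, with 7 of 10 below the filter. Their level ran from 6.30 to 6.34 in Rarb-null and from 6.19 to 6.28 in WT arrays, a difference of 0.09 (exact permutation adjusted p = 0.013). All genes below the filter had a median difference of 0.06, as given above. Of the 3 tested, Ccdc153 rose (0.19), while Meig1 (0.27) and Rarres2 (0.03) did not pass.

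**Figure D3:**
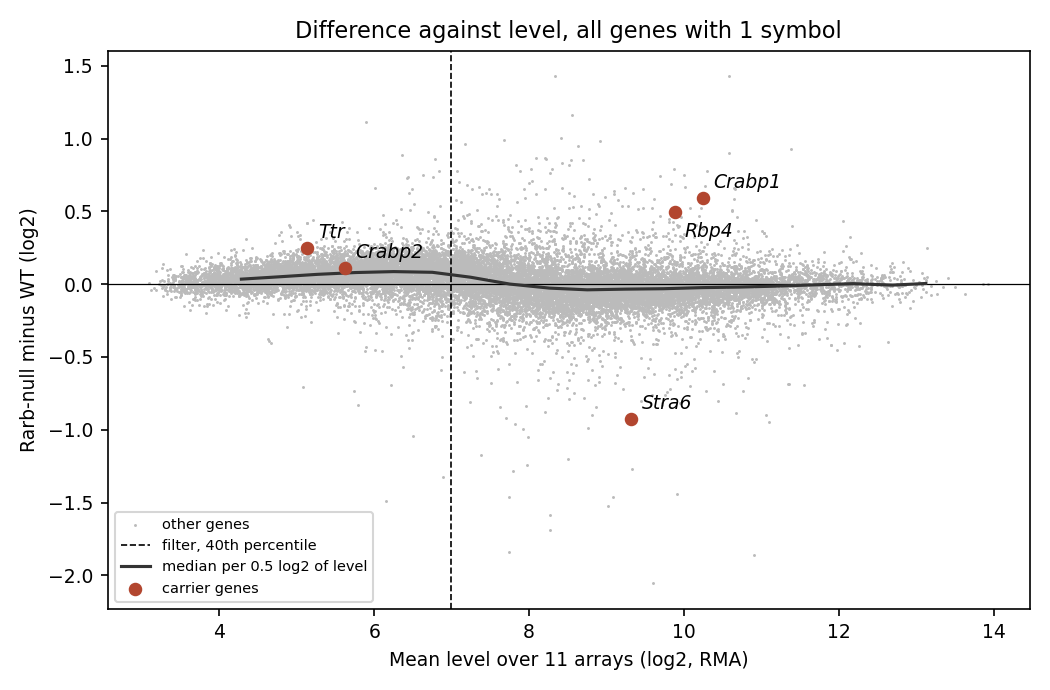
Difference between Rarb-null and WT arrays (log2, vertical axis) against mean level over 11 arrays (log2, horizontal axis) for 19938 genes (grey) and the 5 carriers (red). The dark line is the median difference in steps of 0.5 log2 of level and the dashed line is the filter at the 40th percentile. The median lies above 0 among dim genes, where Crabp2 and Ttr stand, while Stra6, Rbp4 and Crabp1 lie far from it.

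Glial marker lists had lower levels in Rarb-null arrays. Of 10 astrocyte markers 4 fell and 1, Gfap (0.27), rose. Without the filter the falls passed and Gfap did not (adjusted p = 0.0512). Their level ran from 10.05 to 10.13 in Rarb-null and from 10.13 to 10.22 in WT arrays (exact permutation adjusted p = 0.013, and 0.0896 with arrays centred), with Aldoc at -0.11 and Slc1a2 at -0.06. Of 11 measured oligodendrocyte markers 5 fell and 0 rose, where 12.0% of all tested genes fell and 7.56% rose. Without the filter 2 of the falls passed, and Mag, Cnp and Mal did not (adjusted p 0.0512 to 0.0633). Their level ran from 9.15 to 9.39 in Rarb-null and from 9.34 to 9.58 in WT arrays (exact permutation adjusted p = 0.0487, and 0.103 with arrays centred), with Cnp at -0.14 and Mbp at 0.01. The part of these cells in the carrier results was not tested beyond the covariate fits.

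Of the other genes that handle retinoids, a fatty acid and retinoic acid carrier gene, a pair of retinol-converting enzyme genes and a receptor gene fell beside Rarb, and none of the tested ones rose. Among other carriers, 7 of 8 were measured and 2 tested, of which 1 fell. Fabp5, whose protein binds fatty acids and can carry retinoic acid to a different nuclear receptor, had 9.95, 9.85, 9.85 and 9.98 in Rarb-null replicates 1, 2, 3 and 5 and slightly more in replicate 4, against a lowest of 10.28 and a highest of 10.46 in the WT arrays. It fell by 0.43 (SE 0.041; adjusted p = 1.17e-05 by limma), without overlap. Rlbp1 gave 0.07 and did not pass, while Rbp2, Rbp3, Rbp7, Stra6l and the endocytic receptor gene Lrp2 were below the filter. Of 21 enzyme genes 6 were tested, of which 2 fell and 0 rose, where 12.0% of all tested genes fell and 7.56% rose. Rdh10, which oxidises retinol to retinaldehyde, had 8.68, 8.59, 8.48, 8.55 and 8.85 in the Rarb-null arrays, against a lowest of 9.12 and a highest of 9.27 in the WT arrays, a fall of 0.56 (SE 0.058). Dhrs3, which works in the opposite direction, had 8.60, 8.64, 8.54, 8.51 and 8.84 in the Rarb-null arrays, against a lowest of 8.99 and a highest of 9.40 in the WT arrays, a fall of 0.52 (SE 0.072, adjusted p = 0.000236). Neither enzyme of this pair had overlapping groups. The retinoic acid-degrading gene Cyp26b1 gave 0.14 (adjusted p = 0.0674), and of the synthesis genes Aldh1a1 gave 0.07 (adjusted p = 0.759). Of 6 receptor genes 2 fell, Rarb itself and Rxrg (-0.90, SE 0.050), and 0 rose. The medians of the tested genes were -0.18 for the other carriers, -0.08 for the enzymes and -0.05 for the receptors, against -0.02 over all tested genes.

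Because transthyretin also carries thyroid hormone, genes of that hormone were read too. Of 14 listed 13 were measured and 8 tested, and of all tested genes 12.0% fell and 7.56% rose. The receptor gene Thrb fell by 0.48 (SE 0.055; adjusted p = 5.87e-05 by limma). Its position relative to the mutated Rarb was not read, so an effect of linked alleles on this fall was not tested. The receptor gene Thra (0.11, SE 0.028) and Crym, whose protein binds the hormone in the cytosol (0.14, SE 0.046), rose slightly. Crym did not pass in 7 of the 11 fits that each lacked an array, namely Rarb-null replicate 1, 3 or 4 or WT replicate 1, 2, 4 or 5 (0.11 to 0.15, with adjusted p between 0.059 and 0.094). It also failed without the filter (adjusted p = 0.059), without the 3 arrays of extreme cortical level (0.0548) and with the cortical (0.0599), choroid plexus (0.15) or oligodendrocyte covariate (0.582), the last of which gave a difference of 0.05. The transporter genes Slco1c1 (-0.03), Slc7a5 (0.02), Slc7a8 (-0.03) and Slc3a2 (0.00) and the activating deiodinase gene Dio2 (-0.12) did not pass. The median of the tested genes was -0.01.

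**Figure D4:**
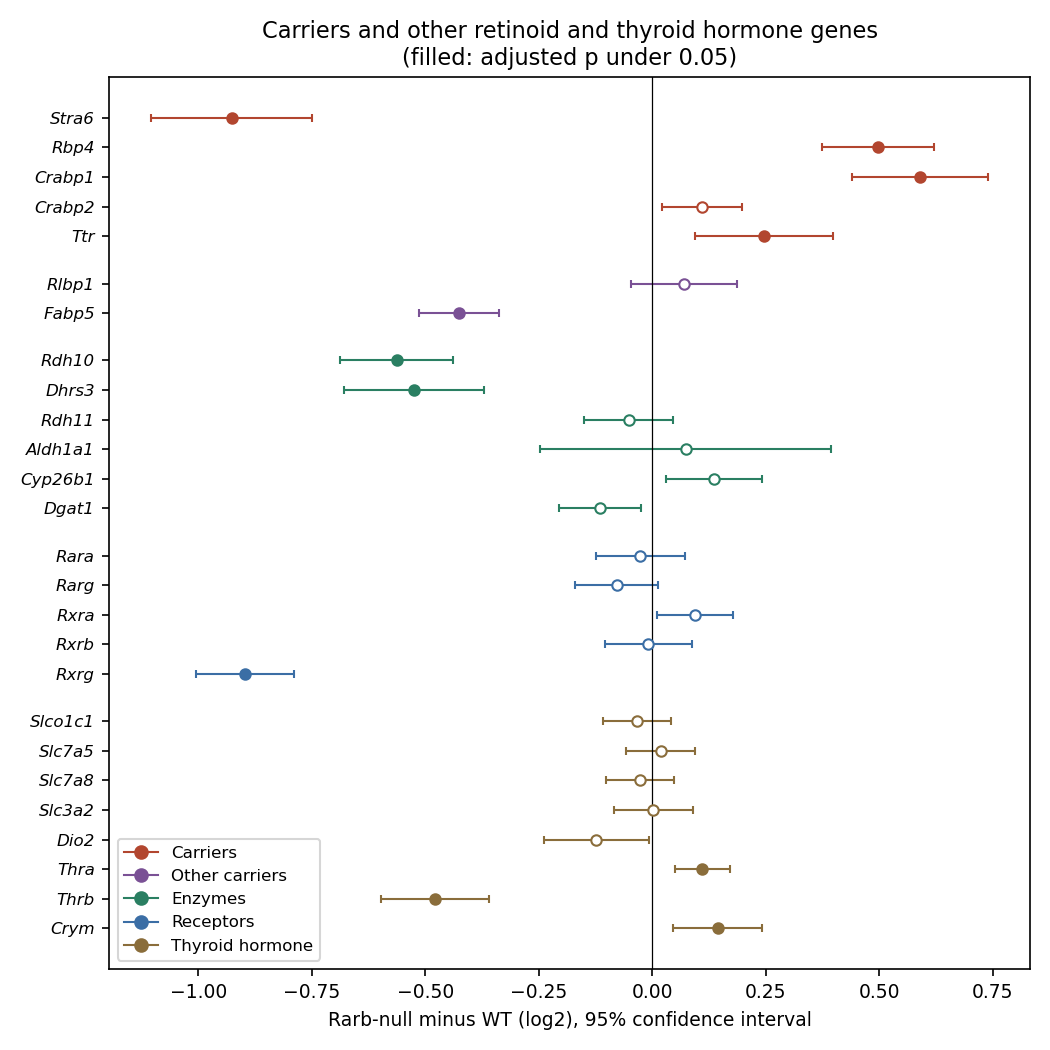
Difference between Rarb-null and WT arrays (log2, horizontal axis) with its 95% confidence interval for the 5 carriers and for the tested genes of the other retinoid and thyroid hormone lists, Rarb left out. Filled points passed the adjusted p of 0.05. Stra6 and Rxrg lie farthest to the left, near -0.9, and Crabp1 and Rbp4 farthest to the right, near 0.6 and 0.5.

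Between mice of the same genotype, the carriers were weakly correlated. Over the 10 pairs of carriers, Pearson correlations of deviations from the genotype means over 11 arrays ran from -0.35 (Rbp4 with Crabp1) to 0.29 (Crabp2 with Ttr), and Spearman correlations from -0.34 to 0.25. Among the 11962 other tested genes, those whose deviations were most like Stra6 were the ribosomal protein gene Rpl10 (r = 0.90, rho = 0.79), Pcnp (r = 0.88, rho = 0.74) and Zmat5 (r = 0.87, rho = 0.84). For Rbp4 they were the potassium channel subunit gene Kcnab2 (r = 0.96, rho = 0.95), Rnpep (r = 0.91, rho = 0.85) and Sec14l1 (r = 0.91, rho = 0.90). For Crabp1 they were the transcription factor gene Nrf1 (r = 0.91, rho = 0.85), the proton pump subunit gene Atp6v1c2 (r = 0.89, rho = 0.86) and Grb10 (r = 0.87, rho = 0.73). Of these 9 genes, Atp6v1c2 (0.87) and Rpl10 (0.14) also rose in Rarb-null arrays. These correlations describe the highest values among all tested genes on the same arrays, and carry no test.

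**Figure D5:**
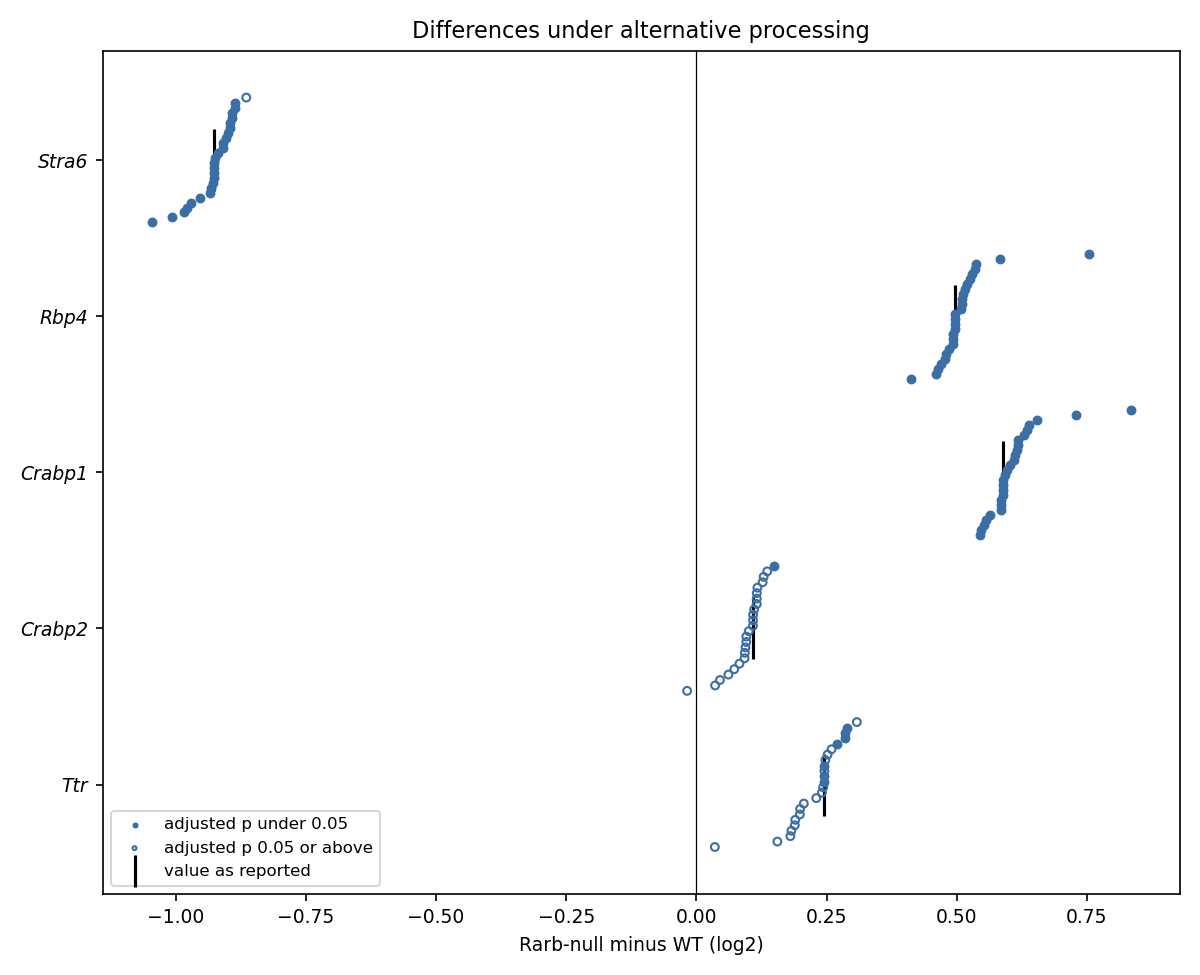
Difference between Rarb-null and WT arrays (log2, horizontal axis) for each carrier under the processing alternatives, as points, and as reported, as a black bar. Filled points have an adjusted p below 0.05 and open points do not. The points of Stra6 stay between -1.05 and -0.86, those of Rbp4 between 0.41 and 0.75 and those of Crabp1 between 0.54 and 0.83, while most points of Ttr and all but 1 of Crabp2 are open.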

How the data were processed

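RNA (100 ng per mouse) came from nucleus accumbens punches of 5 Rarb-null and 6 WT mice, per the labels. The deposited log2 values are those the authors obtained by RMA, per the submitters' processing notes. This method corrects background, equalises the distributions of the arrays and combines probes, which compresses folds of dim probe sets. The base of the log was inferred from the range of the values. The software version, annotation and scan batches are not given in the sources used here. Replicates are separate mice per the series design. Of 35556 probe sets, 21789 had 1 symbol in the platform annotation (21698 updated through Entrez identifiers to RefSeq, GRCm38.p6), 1621 had several and 12146 were not named. A gene was read by its brightest probe set. Genotypes were compared with limma 3.58.1 in R 4.3.3 (lmFit, eBayes, no covariate), with Benjamini-Hochberg adjustment over the genes above the 40th percentile of mean level. The fit was tested on simulated data.

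Marker list levels were means of log2 values, compared with two-sided exact permutation tests over 462 splits, adjusted over 9 lists. Relations used 100000 permutations within genotype. Figures used matplotlib 3.10.9. Named genes were Rarb, the carriers, up to 4 called genes of each pathway list, choroid plexus markers, the 2 brightest genes of each marker list, and the 3 genes most like each tested carrier. Other genes were named after their values were seen. The carriers, lists and tests were chosen with earlier results of these data known. The number of arrays limits the precision.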

Additional observations from a re-analysis of the deposited data

Results flagged for a closer look

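Among 30 groups of arrays (Rarb, the 5 carriers and 9 marker lists in each genotype), a Rarb-null array stood apart from its group 4 times, by Dixon's ratio of gap to range at the 95% level. Chance gives about 1 in 20 groups. For Crabp1, Rarb-null replicate 4 read 10.74, against 10.48 to 10.55 in the other Rarb-null arrays. For the meningeal fibroblast markers, Rarb-null replicate 1 had a mean level of 7.34, against 7.07 to 7.14 in the others. It was also the Rarb-null array with the highest Stra6 level. Rarb-null replicate 5 stood apart for the cortical neuron markers (8.67, against 8.09 to 8.25) and for the striatal interneuron markers (8.95, against 8.71 to 8.73).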

How the results depend on the processing

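Rbp4 and Crabp1 kept their direction and their call under all 26 alternatives run on each (0.41 to 0.75 and 0.54 to 0.83), and Stra6 under 25 of 26 (-1.05 to -0.86). The exception for Stra6 was the projection neuron marker level as a covariate, an alternative chosen after seeing the data (-0.86, SE 0.237, adjusted p = 0.0975). That level does not overlap between genotypes, and with it 251 genes were called, Crabp2 gave -0.0178 (adjusted p = 0.978) and Ttr 0.0355 (adjusted p = 0.973). Leaving out 1 array at a time gave -0.98 to -0.89 for Stra6, 0.46 to 0.54 for Rbp4, 0.54 to 0.64 for Crabp1, 0.09 to 0.13 for Crabp2 and 0.20 to 0.29 for Ttr. Crabp2 passed with arrays centred (0.15, adjusted p = 0.0257). Ttr kept its call under 7 of 24 alternatives. It lost it with quantile normalisation repeated (0.18), cyclic loess (0.19), the cortical (0.16), choroid plexus (0.19), oligodendrocyte (0.31) or interneuron (0.20) covariate and without the 3 arrays of extreme cortical level (0.18). The cause was not tested. Called genes numbered 2341 as reported, 1256 with the cortical, 765 with the choroid plexus and 810 with the oligodendrocyte covariate. They numbered 1347 without the 3 arrays, and 1547 to 2576 without 1 array (1547 without Rarb-null replicate 3). How many of the 2341 genes were called again in each fit was not counted. Rising and falling calls numbered 905 and 1436 as deposited, 1677 and 939 with arrays centred, 1278 and 1229 without a filter, 510 and 1209 with a filter at the 60th percentile, and 1180 and 1171 with quantiles repeated. Replicate numbers 1 to 5 occur in both genotypes, and deviations of same-numbered arrays were all positively correlated (r from 0.06 to 0.43). Arrays of different number were not compared, so a batch shared by number was not tested. With the replicate number as a block 2872 genes were called, Stra6 gave -0.90, Rbp4 0.49, Crabp1 0.58, Crabp2 0.10 and Ttr 0.25, and no carrier's call changed. WT replicate 6 has no Rarb-null array of its number, so these differences equal those of the fit without WT replicate 6. With arrays centred the endothelial and mural level gave 0.00579 in place of -0.0342. Of other named genes run under the alternatives, Islr, Thrb, Clic6 and Kl lost their call under 1 each, Sema7a and Acsbg1 under 3 each, Thra under 5 and Crym under 12. Without a filter Col1a1, Col1a2, Th, Calb2, Cck, Gfap, Cnp, Mag, Mal and Tbc1d12 lost theirs. Their other alternatives were not run.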

Other observations

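Dio3, the gene of the deiodinase that inactivates thyroid hormone, lay below the filter and gave 0.51 (SE 0.067) without it, with adjusted p = 0.000268 by limma and no overlap between the genotypes. It averaged 6.74 in Rarb-null and 6.23 in WT arrays, and it kept its call under all 24 alternatives run on it (0.42 to 0.88). Aldh1a3, a gene of retinoic acid synthesis, was also below the filter and gave 0.22 (adjusted p = 0.0336). That call was kept under 10 of 24 alternatives. It was lost when the array left out was Rarb-null 2 or 3 or WT 3, 4, 5 or 6 (0.16 to 0.22, adjusted p 0.0525 to 0.0713).

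Kl and Clic6, both listed as choroid plexus markers, moved in opposite directions and without overlap between genotypes. Kl read 7.57, 7.50, 7.52, 7.39 and 7.47 in Rarb-null arrays, against 7.79 or more in every WT array. Clic6 read 9.16, 8.95, 9.07, 9.16 and 8.87 in Rarb-null arrays, against 8.48 to 8.80 in WT arrays. Folr1 and Kcne2, which define that epithelium, averaged 6.17 and 5.75 in Rarb-null and 6.06 and 5.64 in WT arrays and did not pass (without a filter, adjusted p = 0.191 and 0.228).

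Near Ttr on chromosome 18, genes of the desmoglein family, adhesion proteins of desmosomes, were read below the filter and were named after their values were seen. Dsg1c, 6 genes from Ttr, averaged 5.34 in Rarb-null and 6.83 in WT arrays, a difference of -1.49 (SE 0.075; adjusted p = 3.75e-08 by limma without a filter). Dsg2, next to Ttr, averaged 5.84 in Rarb-null and 6.17 in WT arrays (-0.34, SE 0.045; adjusted p = 0.000296). For both genes the groups did not overlap. Dsg1c has close copies in Dsg1a and Dsg1b, so the source of its signal is uncertain. Dsg1b gave -0.21 (adjusted p = 0.122), Dsg3 0.02 and Dsg4 0.03.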
